A study of Homo sapiens with 9 samples.

Results

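KYSE30 cells transfected with siPIK3R1, a small interfering RNA (siRNA) against PIK3R1, were compared with KYSE30 cells transfected with a negative control. KYSE30 is an established human cell line that came from a squamous cell carcinoma of the esophagus. Each of these groups was 1 culture on 1 Illumina array, out of 9 arrays in the series, and RNA was taken on day 3 after transfection with a cationic lipid reagent. The cell line, medium, reagent and harvest day were shared by both groups. Probes were compared where the detection p-value, the array's own measure of signal over background, was under 0.01 on at least 1 of the 2 arrays. Of 47317 probes, 15985 met this rule, and 31332 were detected on neither array. With 1 array per group there is no replicate error, no test was possible, and a difference between the arrays may be one between 2 cultures. The sources used here do not give the sequence and dose of the siRNA or the nature of the negative control.

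PIK3R1 encodes the main regulatory subunit of class I phosphoinositide 3-kinase (PI3K), a lipid kinase that carries growth factor signals from the membrane to AKT. The regulatory subunit stabilizes the catalytic subunit, holds its activity low at rest and brings it to activated receptors, so its loss is known to lower or raise signaling depending on the cell. AKT in turn restrains FOXO transcription factors and promotes growth through mTOR. The files name probes by number only, without genes, and the reference table used here holds none of these numbers. The level of PIK3R1, which would check the label of the siPIK3R1 array, and the squamous markers, which would check the cell line, were therefore not analysed here, and the results are given for sets of probes and for 4 probes by number.

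Raw signal was lower on the siPIK3R1 array by the mean and at detected probes, but not by the median of all probes. Its mean was 343 against 406 on the negative control array, and over the 13455 probes detected on both arrays the median was 348 in siPIK3R1 and 418 in the negative control. Over all probes on the array, most of them undetected, the median was 102.6 in siPIK3R1 and 99.1 in the negative control. The other 7 arrays had means of 223 to 468. In siPIK3R1 14341 probes were detected, and 15099 in the negative control. All levels below are log2 values after background correction and quantile normalization of the 9 arrays together, unless raw signal is named, and all differences are siPIK3R1 minus negative control on the log2 scale.

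Most probes stood close together on the 2 arrays. Of the 13455 probes detected on both, 10092 were under 1.5-fold apart. The median difference of the 13455 probes was -0.03, and the quartiles were -0.36 and 0.34. Quantile normalization gives the arrays the same distribution, so a median difference near 0 was largely set in advance. The outer percentiles were not alike, with the lowest 1% of probes at -1.13 or less and the highest 1% at 1.35 or more. Differences of at least 2-fold were measured at 475 probes higher in siPIK3R1 (2.97% of those compared) and at 300 lower (1.88%), together 775 (4.85%).

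**Figure D1:**
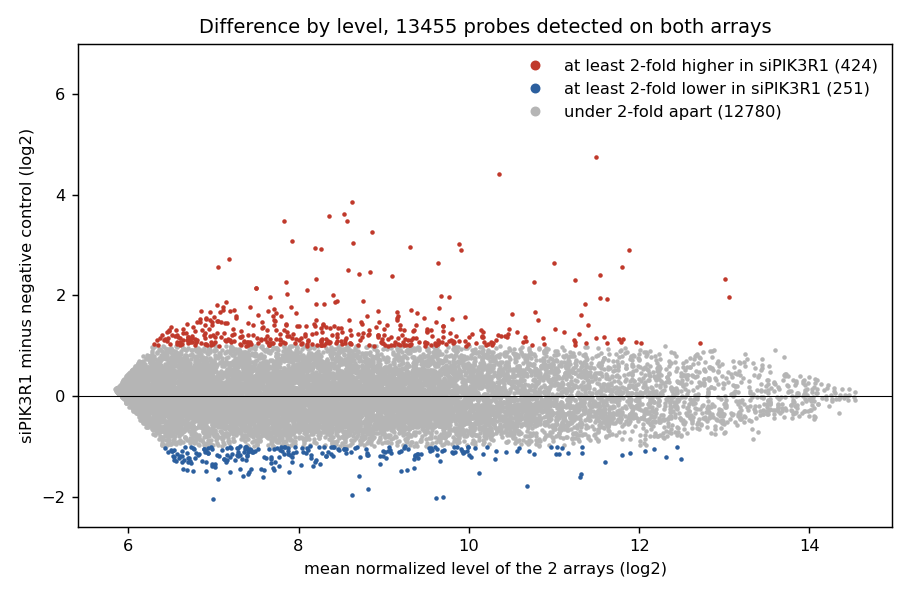
Each point is a probe detected on both arrays, with the mean normalized log2 level of the arrays on the horizontal axis and the log2 difference, siPIK3R1 minus negative control, on the vertical axis. Red points (424) are at least 2-fold higher in siPIK3R1, blue points (251) at least 2-fold lower, and no lower probe lies beyond 4.13-fold while higher probes reach 26.9-fold.

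The higher side reached much larger sizes than the lower side. At 1.5-fold the directions were close, with 2011 probes higher in siPIK3R1 (12.6%) and 1777 lower (11.1%). At 3-fold there were 93 higher and 17 lower probes. At 4-fold there were 46 higher (0.288%) and 3 lower (0.0188%), and at 8-fold 13 higher and 0 lower. Of the probes at least 2-fold apart, 61.3% were higher in siPIK3R1. This share was 71.3% without background correction and also 71.3% with median scaling over the probes detected on all arrays, and it turned to 12.2% with median scaling over all probes, which lowered the median of all compared probes by 0.29. After that median was centred on 0 the share was 55.4%, with 409 probes higher and 330 lower.

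**Figure D2:**
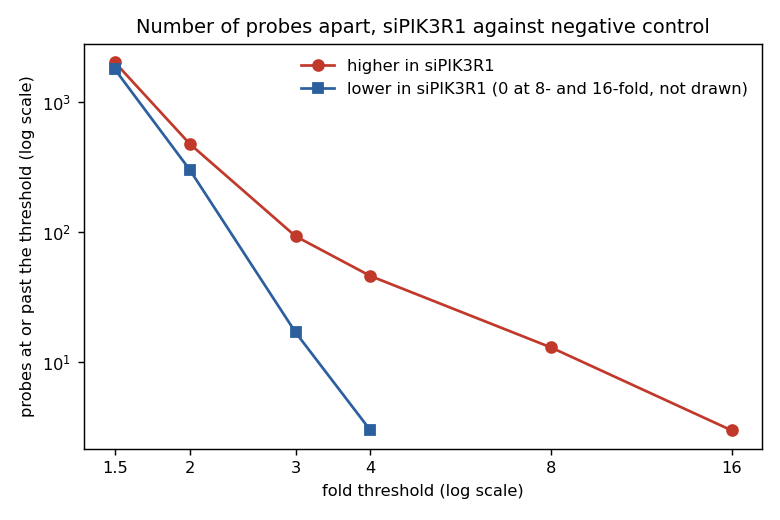
The number of probes at or past each fold threshold is plotted on logarithmic axes for probes higher (red) and lower (blue) in siPIK3R1 than in the negative control. The lines start near each other at 1.5-fold (2011 and 1777 probes) and part to 46 and 3 probes at 4-fold. The order of the counts at 2-fold turned under 1 scaling, by the median of all probes.

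The 13 probes at least 8-fold higher had raw signals from 684 to 13153 on the siPIK3R1 array, with a median of 1187. On the negative control array the same probes lay between 91.7 and 672, with a median of 180. Each of these probes thus had a raw signal of at least 684 in siPIK3R1, while in the negative control they ran from background level to 672. For 2 of them the negative control was not detected, so that their differences of 12.8-fold and 16.8-fold are lower bounds.

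The raw signal, without any scaling, had the same direction at every 2-fold probe. These probes were chosen by differences made from the same signals, so a shared direction was likely in itself. All 475 higher probes had a higher raw signal in siPIK3R1, with a median of 441 in siPIK3R1 and 239 in the negative control. All 300 lower probes had a lower raw signal, with a median of 181 in siPIK3R1 and 394 in the negative control. The lower signal of detected probes on the siPIK3R1 array favours this direction by itself. By raw signal alone, 97 of the 475 were at least 2-fold higher and 184 of the 300 at least 2-fold lower. In the processed values deposited by the authors, 473 of the 475 and 300 of the 300 were at least 2-fold apart in the same direction. Those values are a straight-line function of the same raw signals and are not a separate measurement.

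The probes with the largest differences are given by number, the 2 highest and the 2 lowest among probes detected on both arrays. ILMN_1662358 had a raw signal of 13153 in siPIK3R1 and 672 in the negative control, a difference of 4.75, or 26.9-fold. ILMN_1674063 had 5329 in siPIK3R1 and 369 in the negative control, a difference of 4.42, or 21.4-fold. Neither was at its highest on the siPIK3R1 array, which ranked 3 of 9 from the top for both. ILMN_1662358 reached 16836 in siPIK3R3 and 14472 in the siRNA combination, 13108 in miR-181b, and between 6478 and 8591 in miR-32, miR-455 and the miRNA combination. It was at 481 in miR-181a, below the negative control. ILMN_1674063 had the same arrangement, with 9143 in siPIK3R3, 8288 in the siRNA combination, 3034 to 5080 in miR-181b, the miRNA combination, miR-32 and miR-455, and 230 in miR-181a. On both probes the negative control and miR-181a thus stood apart from the other 7 arrays.

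ILMN_1710216 had a raw signal of 131 in siPIK3R1 and 347 in the negative control, a difference of -2.04, or 4.13-fold lower. Its detection p of 0.0091 in siPIK3R1 was the last value inside the threshold, so its level there was near background. After normalization siPIK3R1 had the lowest level of the 9, at 5.98, followed by the siRNA combination at 7.27, and the other 7 arrays lay between 8.02 and 8.53. Unlike the 2 highest probes, this one was thus lower in siPIK3R1 than on nearly every array. ILMN_1663401 had 397 in siPIK3R1 and 1804 in the negative control, a difference of -2.04, or 4.10-fold lower. Its normalized level was 8.60 in siPIK3R1 and 8.55 in the siRNA combination, 9.14 in the miRNA combination, 10.00 to 10.24 on 5 further arrays and 10.63 in the negative control, the highest of the 9.

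**Figure D3:**
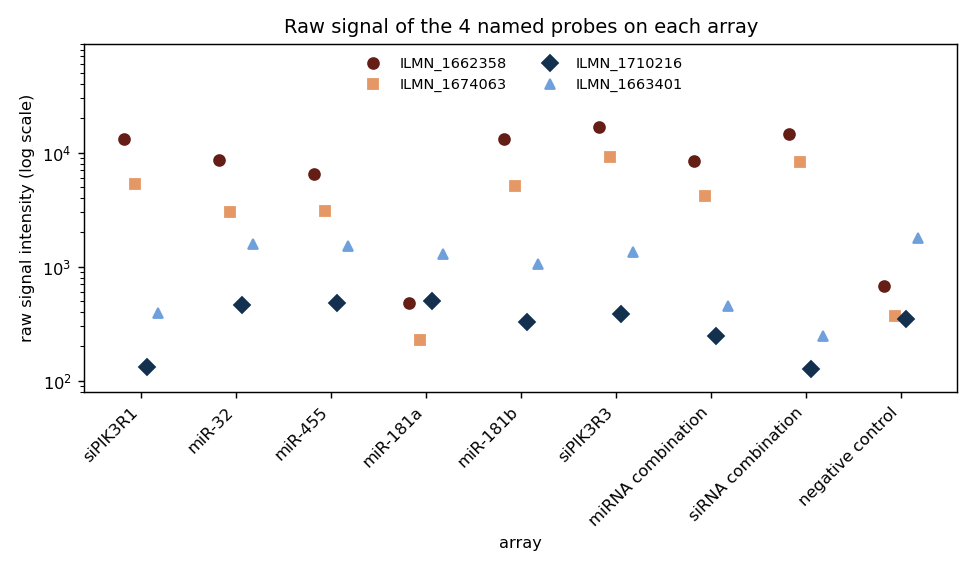
Raw signal intensity (logarithmic axis) of the 4 named probes on each of the 9 arrays, with siPIK3R1 at the left and the negative control at the right. ILMN_1662358 and ILMN_1674063 are low in the negative control and miR-181a and high on the other 7 arrays. ILMN_1710216 and ILMN_1663401 are low in siPIK3R1 and the siRNA combination, and ILMN_1663401 is also low in the miRNA combination.

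Small and large differences on the higher side behaved differently on the other 7 arrays. For this description the 475 higher probes were put in classes by the size of their own difference, and their levels were then read on every array. These classes were chosen by values of the siPIK3R1 and negative control arrays, and the differences of all arrays share 1 negative control, so they are given side by side without a test. Where a probe was not detected, the lowest detected level of that array took its place.

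The 382 probes between 2-fold and 3-fold higher had a median difference of 1.15 in siPIK3R1. Their median was 0.67 in miR-181b, 1.0 in the miRNA combination and 1.14 in the siRNA combination. It was near 0 on the other 4 arrays, at 0.09 in siPIK3R3, 0.00 in miR-32, 0.00 in miR-455 and -0.11 in miR-181a. These probes were thus close to the level of the negative control, by their median, in 4 transfections. The spread was not alike on these arrays, with an upper quartile of 0.64 in siPIK3R3, 0.32 in miR-32, 0.30 in miR-455 and 0.09 in miR-181a. A part of the 382 was therefore also higher in siPIK3R3. The siPIK3R1 array had the highest level of all 9 for 167 of the 382 (43.7%). Over all compared probes this share was 16.6%, and choosing probes that are high in siPIK3R1 raises it.

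The 46 probes at least 4-fold higher had a median difference of 2.55 in siPIK3R1, where 36 were detected on both arrays and 10 entered as lower bounds. Their median was larger in siPIK3R3, at 3.97, and in the siRNA combination, at 4.46. It was 2.77 in miR-181b, 2.84 in the miRNA combination, 1.68 in miR-32 and 1.60 in miR-455, and -0.26 in miR-181a. In levels, the median of these probes was 9.84 in siPIK3R1, 11.07 in siPIK3R3, 6.71 in miR-181a and 6.84 in the negative control. Their high level was thus shared by all transfections but miR-181a and the negative control. The siPIK3R1 array had the highest level of the 9 for 3 of the 46 (6.52%), against 16.6% of all compared probes. The 47 probes between 3-fold and 4-fold lay between these classes, with medians of 1.71 in siPIK3R1, 2.02 in siPIK3R3, 0.58 in miR-32 and 0.69 in miR-455, and siPIK3R1 was the highest array for 10 of them (21.3%).

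The lower probes had the arrangement of the small higher ones, turned round. The 283 probes between 2-fold and 3-fold lower had a median difference of -1.14 in siPIK3R1, -0.83 in miR-181b, -1.17 in the miRNA combination and -1.19 in the siRNA combination. Their median was -0.14 in siPIK3R3, -0.14 in miR-32, -0.10 in miR-455 and 0.03 in miR-181a. The 14 probes between 3-fold and 4-fold lower had medians of -1.66 in siPIK3R1, -1.04 in miR-181b, -1.52 in the miRNA combination and -1.34 in the siRNA combination, and of -0.11 to -0.24 on the other 4 arrays. Of these 14, 7 were detected on both arrays and the siPIK3R1 differences of the others are bounds, so the median in siPIK3R1 is itself partly a bound. In siPIK3R3, miR-32, miR-455 and miR-181a no class of lower probes had a median beyond -0.24. The arrays on which the small classes moved away from the negative control, siPIK3R1, miR-181b and both combinations, were also the 4 dimmest by mean raw signal, at 343, 361, 270 and 223, and the part of array brightness in these differences was not tested.

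**Figure D4:**
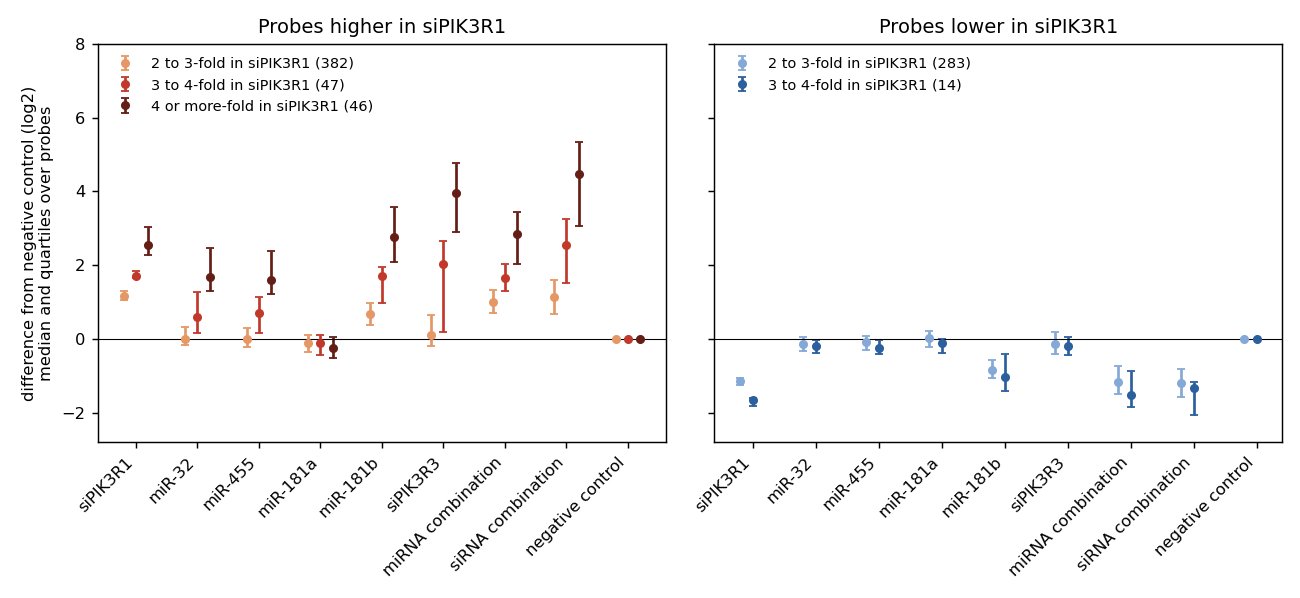
Median log2 difference from the negative control, with quartiles over probes as bars, on each array for probes higher (left panel) and lower (right panel) in siPIK3R1, by the size of the difference in siPIK3R1. Probes 2-fold to 3-fold apart stand away from 0 in siPIK3R1, miR-181b and both combinations. The 46 probes at least 4-fold higher stand above 0 on every array but miR-181a and the negative control, which is the reference. The 3 lower probes of that size are not drawn.

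Placed among all 9 arrays, siPIK3R1 was the highest for 180 of the 475 higher probes (37.9%) and the negative control was the lowest for 106 (22.3%). For 16 probes both held. Over all 15985 compared probes siPIK3R1 was the highest for 16.6% and the negative control the lowest for 7.14%, so the choice of the probes raised both shares. Of the 300 lower probes, siPIK3R1 was the lowest array for 108 (36.0%, against 13.0% of all compared) and the negative control the highest for 97 (32.3%, against 10.9%). Without the negative control, siPIK3R1 lay within the range of the other 7 arrays for 294 higher (61.9%) and 192 lower probes (64.0%). These shares were near the 67.8% of all compared probes.

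Few probes set siPIK3R1 apart from every other array. At 2-fold above all 8 others there were 4 probes, with raw signals of 203 to 1169 in siPIK3R1 and 107 to 667 in the negative control, and differences of 1.10 to 1.48. Of these 4, 2 were detected on all 9 arrays, and their distance to the nearest array was 2.08-fold to 2.30-fold. At 2-fold below all 8 others there were 6 probes, 5 of them detected on all 9 arrays, among them ILMN_1710216. Their raw signals were 124 to 449 in siPIK3R1 and 231 to 1158 in the negative control, with a lowest value of 113 over the other 8 arrays. In raw signal ILMN_1710216 was not lowest in siPIK3R1, at 131 against 128 on the dimmer siRNA combination array. The value of 113 belonged to another of these probes and lay under the lowest siPIK3R1 signal, 124, so that probe was not lowest either. The place of both probes thus rests on the normalization. After normalization the 6 probes lay 2.09-fold to 2.45-fold below the nearest array. None of the 13 probes at least 8-fold higher was among the 4, whose largest difference was 1.48.

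Set directly against the other transfections, the siPIK3R1 array was nearest to miR-181b, with 301 probes at least 2-fold apart (1.95%), 176 higher and 125 lower in siPIK3R1. Next came the miRNA combination with 539 (3.33%). The negative control, with 775, stood between these and the siRNA combination with 987 (6.19%), miR-32 with 1002 (6.05%), miR-455 with 1171 (7.24%) and miR-181a with 1604 (10.1%). The array furthest from siPIK3R1 was that of siPIK3R3, which targets another PI3K regulatory subunit, with 1883 probes apart (11.9%), 959 higher and 924 lower in siPIK3R1. These comparisons all share the siPIK3R1 array, and neighbours in this order were not tested. The standard deviation of the difference over the 12202 probes detected on all arrays ran from 0.38 against miR-181b to 0.67 against siPIK3R3, with 0.53 against both the negative control and the siRNA combination (0.534 and 0.528), so by this measure the siRNA combination was the nearer of the pair.

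**Figure D5:**
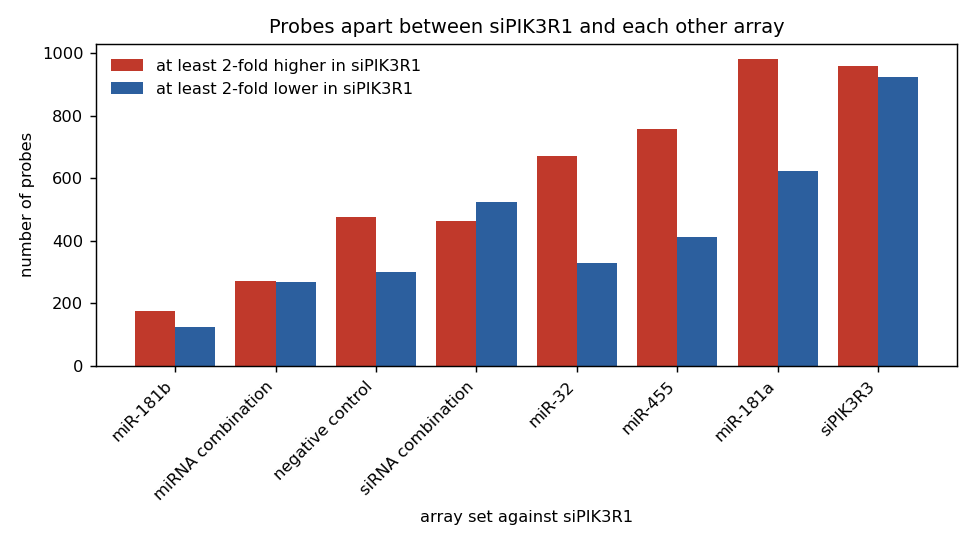
Number of probes at least 2-fold higher (red) or lower (blue) in siPIK3R1 than on each of the other 8 arrays, in order of the total. The total runs from 301 against miR-181b to 1883 against siPIK3R3, with 775 against the negative control.

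Differences were spread over nearly the whole range of signal. With the probes detected on both arrays put in 10 equal bins by mean level, the dimmest bin had 9 higher and 1 lower probe of 1346, where the detection rule and the offset leave little room for a difference. In the 7 bins above it, between 3.57% and 4.09% of probes were higher and between 1.71% and 3.42% lower. In the brightest bin, 1.93% were higher and 0.89% lower. The standard deviation of the difference was 0.37 in the dimmest bin and between 0.51 and 0.58 in the other 9. With this normalization higher probes outnumbered lower ones in each of the 10 bins.

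Probes detected on 1 of the 2 arrays gave lower bounds, which made up 17 of the 93 higher and 7 of the 17 lower probes at 3-fold, and 10 of the 46 higher and 0 of the 3 lower probes at 4-fold. Detection in siPIK3R1 alone was found for 886 probes, of which 51 were at least 2-fold higher as a lower bound, and 247 were detected on none of the other 7 arrays. Over all compared probes, 475 of 15985 (2.97%) were at least 2-fold higher. Of the 51, 30 were detected on at least 5 of the other 7 arrays and 1 on none. All of the other 7 arrays detected 9 of the 51, against 45 of the 886. Detection in the negative control alone was found for 1644 probes, of which 49 were at least 2-fold lower as a bound, and 523 gave no bound because their level lay at or under the lowest detected level of siPIK3R1. Over all compared probes, 300 of 15985 (1.88%) were at least 2-fold lower. Of the 49, 43 were detected on at least 5 of the other 7 arrays, and 0 were detected on none of them. All of the other 7 arrays detected 29 of the 49, against 218 of the 1644, and 180 of the 1644 were detected on none of them. The signals of such probes were dim, with a median of 193 in siPIK3R1 and 112 in the negative control for the 51, and 122 in siPIK3R1 and 214 in the negative control for the 49.

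At the edge of the detection rule, 334 probes had 0.0091 as their lower detection p, just inside, with median raw signals of 129 in siPIK3R1 and 116 in the negative control. Just outside, 144 probes had 0.0104, with medians of 116 in siPIK3R1 and 123 in the negative control. The signals on either side of the threshold were thus close to each other.

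Whether a probe stayed past 2-fold under other processing followed its distance from that threshold, as the division by size makes likely in itself. All 46 probes at least 4-fold higher and 46 of the 47 between 3-fold and 4-fold stayed at least 2-fold higher in each of 5 other treatments of the signal, which were the authors' processed values, normalization of the 2 arrays alone, median scaling over the probes detected on all arrays, an offset of 50 and leaving out the background correction. Of the 382 probes between 2-fold and 3-fold higher, 141 (36.9%) did so. On the lower side all 14 probes between 3-fold and 4-fold and all 3 beyond 4-fold did so, and 77 of the 283 smaller ones (27.2%). In these 5 treatments 0 of the 475 and 300 probes changed sign, unlike with the other reference described next. The treatments reuse the same 2 arrays on which the probes were chosen, so a kept sign was likely in itself.

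With the median of the 8 other arrays in place of the negative control, 220 of the 475 higher and 135 of the 300 lower probes stayed at least 2-fold apart, and 30 of the higher and 3 of the lower ones changed sign. Of the 382 smaller higher probes, 190 were at least 2-fold above that median, and of the 46 at least 4-fold higher, 10 were. The median difference was 0.995 for the 382 and 0.52 for the 46. On the lower side, 121 of the 283 smaller probes, 11 of the 14 and all 3 of the largest were at least 2-fold below it, with medians of -0.95, -1.47 and -1.87 in that order, so the smaller median of the larger class was seen on the higher side and not on the lower. ILMN_1662358 stood 0.74 above this median and ILMN_1674063 0.77, while ILMN_1710216 stood below it, at -2.20.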

How the data were processed

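Per the labels, RNA of 9 KYSE30 cultures, extracted with Trizol, was labeled as biotin cRNA for Illumina arrays, 1 array per group. The deposited raw table pairs, per the file headers, each signal intensity (linear scale) with its detection p-value. The authors' processed table is a straight-line function of the raw intensity, with background subtracted and array means equal. The sources used here do not give array version or software. Precision is limited by the 1 array per group.

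Raw intensities were corrected, quantile normalized and put on a log2 scale with neqc (limma 3.58.1, R 4.3.3, offset 16), all 9 arrays together. Later steps used Python 3.11.15, numpy 2.4.6 and pandas 2.3.3. An undetected value below the lowest detected value of its array was raised to that value. A rule of size, 2-fold, took the place of a test. The steps were run on simulated data, made from the negative control array with changed probes and small added noise. That run checked the steps only and does not measure how far 2 real arrays differ. The 29 gene lists, the 5 marker lists and the rule for named genes could not be applied, since the files do not pair probes with genes, so that only the 2 probes with the highest and the 2 with the lowest difference, detected on both arrays, are given by number. The members and lists were chosen with earlier results of these data known, and the size classes, the place among arrays and the processing counts by class were chosen after the data were seen. Alternatives were the 5 treatments of the signal named above, another reference, other detection filters and 1.5-fold, and, added after seeing the data, median scaling over all probes.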

Additional observations from a re-analysis of the deposited data

How the results depend on the processing

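Of 42 alternative values of the counts, the share of higher probes and the median difference, 28 stayed within 1.5 times the count, 10 percentage points of the share or 0.1 of the median. Quantile normalization and median scaling over detected probes hold the median difference near 0, so its values that stayed say little about stability. Against 475 higher and 300 lower probes, there were 290 and 144 with an offset of 50, 234 and 94 without background correction, and 2011 and 1777 at 1.5-fold. The lower count was 195 when the 8 other arrays, by their median, replaced the negative control, and 498 without a detection filter. The share of higher probes, 61.3%, was 71.3% without background correction and 71.3% with median scaling over detected probes. Median scaling over all probes, added after seeing the data, gave 169 higher and 1217 lower probes, a share of 12.2% and a median of -0.296. Most probes on the arrays are undetected, so that the median used by this scaling falls among undetected probes. The part of the background in this shift was not tested. The 4 named probes kept their sign in every alternative, which their choice by the largest differences makes likely in itself. Of their 40 values, 3 moved by over 1.5-fold. With the other arrays' median as the reference, ILMN_1662358 moved to 0.74 and ILMN_1674063 to 0.77. Without background correction, ILMN_1710216 moved to -1.37. No paired analysis was possible because both groups hold a single array. Alternatives for gene lists and for the mean of a gene's probes were not run, since the probes have no gene names here. Signal near background limits small differences of dim probes, whose size depends on the offset.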
